A study of Mus musculus with 8 samples.

Results

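The chemokine ligands are the small secreted proteins that attract leukocytes by binding G protein-coupled receptors. They were defined here as every gene whose array name starts with Ccl, Cxcl, Cx3cl or Xcl followed by a digit, which gave 35 genes on 45 of the 39429 probes. Of these, 27 genes on 36 probes exceeded background on both arrays of 1 group or more, out of 21806 genes measured in that way, and claims are restricted to them. Small intestine had been taken 4 h after irradiation from 8-week-old female mice of the strain BALB/cA Jcl, and the design text of the series names the segment as jejunum. A beam of carbon ions, heavy charged particles that are also used against tumours, gave 8 Gy to 3 groups. These had been injected intraperitoneally with saline, with FGF1 (fibroblast growth factor 1) or with FGF1/CPP-C, an FGF1-based chimera for which the design text gives a pretreatment of 12 h. The remaining group received saline and 0 Gy, so that all mice had an injection and no unirradiated mouse received a growth factor. Each group had 2 single-colour Agilent arrays, hereafter replicates 1 and 2, and the number of arrays limits the precision of every value. Nothing in the labels states that replicates are different animals, and p-values therefore cover the spread among arrays alone, which may be technical.

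Chemokines fall into CC, CXC, CX3C and C families by the spacing of their first cysteines, and into homeostatic and inflammatory ligands by use. In the small intestine, Ccl25 made by the epithelium guides lymphocytes that carry Ccr9, and Ccl28 guides plasma cells that make immunoglobulin A. Cxcl13, Ccl19 and Cxcl12 organise lymphoid follicles and stroma. The inflammatory ligands, among them Ccl2 and the neutrophil attractants Cxcl1, Cxcl2 and Cxcl5, are induced through transcription factors of the NF-kB family, and Cxcl9, Cxcl10 and Cxcl11 through interferon.

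Values are given as the log2 of the processed signal after division by the 75th percentile of its array, so that 0 is the signal at that percentile. That percentile ranged from 1712 to 2131 intensity units, between 66.9% and 71.1% of probes were well above background, and the arrays of a group correlated with r of 0.982 to 0.994 across genes, which are not independent replicates. The replicate number is also the slide: the first replicates shared 1 slide and the others shared another. All 10 markers of absorptive enterocytes were measured, with a median level of 6.27 to 7.13 on the 8 arrays. Transcripts listed for other digestive tissue were also present, and 3 arrays stood apart. These were replicate 1 of 0 Gy saline, replicate 2 of 8 Gy saline and replicate 1 of FGF1. The median level of the 7 stomach antrum markers was 6.49 to 7.57 on them, against -5.62 to -3.71 on the other 5 arrays. Both 0 Gy saline replicate 1 and 8 Gy saline replicate 2 also carried pancreatic acinar transcripts, with medians of 5.28 and 2.73 over 9 genes against -4.75 to -1.93 elsewhere. The antrum list also differed between groups. Its summed scaled signal was 439 to 1200 on the 6 arrays of the other groups, against 0.506 and 0.402 with FGF1/CPP-C. Its genes Tff2 and Gkn3 passed in both comparisons of the chimera. On the arrays of the other groups with low antrum medians, Tff2 was at 8.2 to 9.0 and Gkn3 at 7.2 to 8.2. Gkn2, Muc5ac and Gast were at -3.71 or below there. Leaving out the 3 arrays therefore does not remove the difference of Tff2 and Gkn3 between FGF1/CPP-C and the other groups. Both genes also passed in the irradiated groups against 0 Gy saline, at -5.45 ± 0.24 for Tff2 (SE, adjusted p = 0.00131 in limma) and -3.76 ± 0.32 for Gkn3 (SE, adjusted p = 0.00952 in limma). These differences came from FGF1/CPP-C, where Tff2 was at -6.00 and -6.72 and Gkn3 at -1.64 and -1.80. On the other irradiated arrays Tff2 was at 8.2 to 8.7, against 8.9 and 9.0 in 0 Gy saline. Gkn3 was at 7.2 to 8.2 on them, against 8.4 and 8.2 in 0 Gy saline. The part of other tissue in the differences below was not tested. Ligand differences printed below with an SE that leaving out the 3 arrays moved by over 1.5 times are given with and without them.

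The sequence behind the probes decides how far 1 member can be read. The Cxcl11 probe used here lies at mm9 chr5:92788567-92788626 on the minus strand. It shares at least 1 stretch of 16 bases, in the same orientation, with probes of 11 other genes or unnamed transcripts, which only 1.14% of all probes do as often, and 9 of these 11 had a mean signal above 10000, among them Kctd14, Glrx2 and Ndor1. The second Cxcl11 probe, at mm9 chr5:92788640-92788699, shares such a stretch with the probe of Rn4.5s, a small RNA related to the B1 family of short repeats. Stretches of 30 bases from both are shown because they carry this limit, with the bases that other probes share in capitals.
Cxcl11 probe used: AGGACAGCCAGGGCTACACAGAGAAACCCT
other Cxcl11 probe: cagcacttgaaAGGCAGAGGCAGGAGGATC
The processed signal of the first ranged from 371734 to 508920 and that of the second from 6306 to 8559 over the 8 arrays. Because the bases occur in other transcripts, these signals are given below as probe values and cannot be assigned to Cxcl11 alone. No other measured ligand probe shared 16 bases with more than 1 other gene in the same orientation.

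Upstream sequence was available from RefSeq (GRCm38.p6) for 24 of the 35 ligand genes in 27 windows, and the 250 bases before the start were searched on both strands. The kappaB-type motif GGGANNTTC was found in 3.23% of all 32851 windows and in 6 ligand genes, Ccl1, Cxcl1, Cxcl2, Cxcl3, Cxcl9 and Cxcl10. The interferon-type motif GAAANNGAA was found in 7.13% of all windows and in 6 ligand genes, Ccl1, Ccl3, Ccl19, Cxcl9, Cxcl10 and Cxcl14. The windows of the 3 neighbouring CXCR2 ligand genes are printed because each holds the kappaB-type motif on both strands between 61 and 97 bases before the start, and that of Cxcl10 as one of the 3 that hold both motifs. Each is written 5′ to 3′ on the strand of the gene up to the base before the start, with the matched motifs in capitals. Matches of 9 bases on opposite strands overlap, so that the capitals can span 11 bases.
Cxcl1 (chr5:90891145-90891244, plus strand): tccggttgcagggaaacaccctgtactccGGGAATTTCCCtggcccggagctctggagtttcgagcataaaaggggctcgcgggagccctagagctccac
Cxcl2 (chr5:90903792-90903898, plus strand): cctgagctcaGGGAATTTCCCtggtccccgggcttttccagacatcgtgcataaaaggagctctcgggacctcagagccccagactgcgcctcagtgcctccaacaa
Cxcl3 (chr5:90786001-90786100, plus strand): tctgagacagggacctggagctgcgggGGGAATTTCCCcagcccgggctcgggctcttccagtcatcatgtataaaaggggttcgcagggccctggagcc
Cxcl10 (chr5:92348890-92349112, minus strand): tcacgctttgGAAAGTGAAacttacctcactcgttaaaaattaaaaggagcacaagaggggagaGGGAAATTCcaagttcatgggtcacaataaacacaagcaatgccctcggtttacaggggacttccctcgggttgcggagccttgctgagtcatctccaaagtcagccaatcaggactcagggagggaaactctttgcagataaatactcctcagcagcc
The match describes letters only, and nothing was measured about binding. On the arrays, Cxcl2 and Cxcl3 were not well above background on any of the 8 arrays, with processed signals of at most 10.3 and 4.01 units, and Cxcl1 was close to background.

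No chemokine ligand passed the test in any of the 5 comparisons. In limma, with p-values adjusted across every gene by Benjamini-Hochberg, 0 of 27 members had an adjusted p under 0.05 in 8 Gy saline against 0 Gy saline, where 0.478% of all genes did. The count was also 0 in 8 Gy FGF1 against 8 Gy saline (0% of all genes), in 8 Gy FGF1/CPP-C against 8 Gy saline (0.00918%), in FGF1/CPP-C against FGF1 (0.00918%) and in the mean of the 3 irradiated groups against 0 Gy saline (2.01%). At an unadjusted p under 0.05 the members numbered 5 in 8 Gy saline against 0 Gy saline (11.6% of all genes), 2 in FGF1 against 8 Gy saline (1.63%), 3 in FGF1/CPP-C against 8 Gy saline (11.3%) and 3 in FGF1/CPP-C against FGF1 (8.65%). In the irradiated groups against 0 Gy saline 11 of 27 were below that value, 5 with higher and 6 with lower levels, against 20% of all genes. The 6 lower members include the Cxcl11 probe. The comparisons share arrays, and each of the first 3 and the last uses the 8 Gy saline arrays, so their values are not independent of each other.

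The signs were mixed. With 8 Gy alone, 11 of 27 members were above their 0 Gy level and the median log2 difference was -0.18, against -0.04 over all genes. FGF1 had 17 members above 8 Gy saline (median 0.06, all genes -0.01), FGF1/CPP-C had 19 (median 0.14, all genes 0.01), and FGF1/CPP-C against FGF1 had 17 (median 0.19, all genes 0.02). In the 3 irradiated groups together, 11 were above 0 Gy saline (median -0.13, all genes -0.05). Arrays of FGF1/CPP-C and FGF1 did not overlap for 12 members higher with the chimera and 7 lower, or 44.4% and 25.9%, against 24.5% and 20.9% of all genes, but none of them differed by 2-fold. In the irradiated groups against 0 Gy saline, 4 members were higher on every irradiated array and 5 lower, against 10.3% and 12.2% of all genes.

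**Figure D1:**
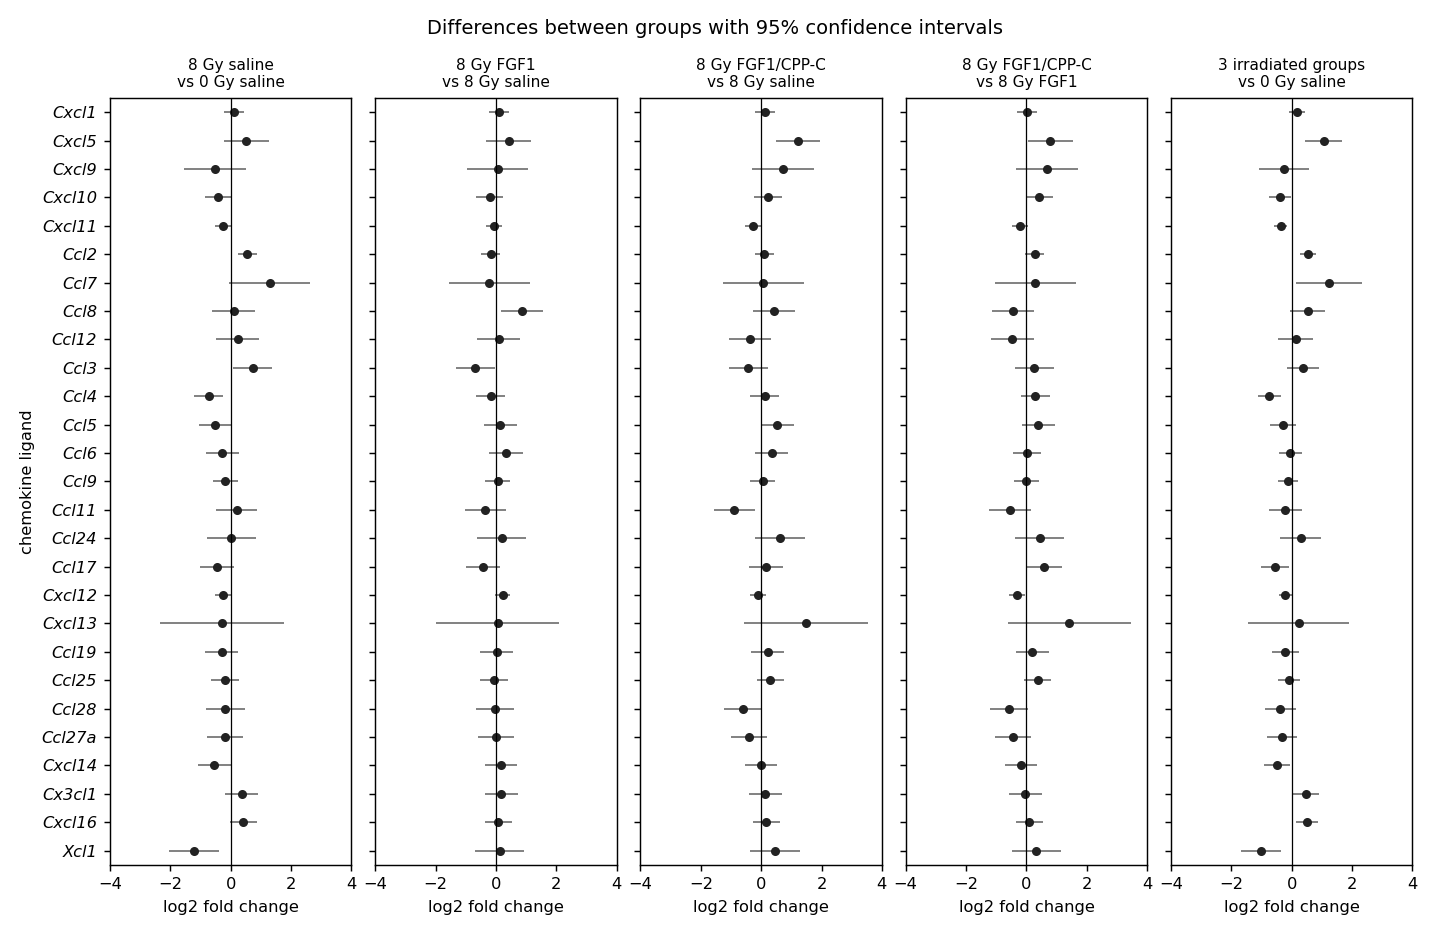
Log2 fold change (x axis) of the 27 measured ligands (y axis, grouped by role) in the 5 comparisons, points being the limma estimate and lines the unadjusted 95% confidence interval. Most intervals include 0, and those of Cxcl13 are among the widest, reaching 3.53 in FGF1/CPP-C against 8 Gy saline.

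Among the monocyte attractants, ligands of Ccr2, Ccl2 and Ccl7 were higher on every irradiated array than on both 0 Gy arrays, without passing. For Ccl12 no irradiated array was above 0 Gy saline replicate 1. All 4 (Ccl2, Ccl7, Ccl8 and Ccl12) had a positive difference in the 3 irradiated groups against 0 Gy saline, with a median of 0.53, though that of Ccl12 turned negative without 0 Gy saline replicate 2. Ccl2, the main monocyte attractant, was read by a probe with 10 spots per array at mm9 chr11:81850650-81850709. The levels of Ccl2 were -3.68 and -3.87 in 0 Gy saline, -3.15 and -3.30 in 8 Gy saline, -3.49 and -3.29 in FGF1 and -3.19 and -3.04 in FGF1/CPP-C. All 6 irradiated arrays were above both 0 Gy arrays. Ccl2 was higher by 0.53 ± 0.11 (SE, adjusted p = 0.0691 in limma), 6 irradiated arrays against 2, and higher by 0.55 ± 0.13 (SE, adjusted p = 0.203 in limma) with 8 Gy and saline alone. Neither passed. Over the other settings the adjusted p of the first difference ranged from 0.0553 to 0.405. FGF1 and FGF1/CPP-C left it within -0.49 to 0.15 and -0.21 to 0.43 (95% intervals) of 8 Gy saline. Ccl2 and Ccl4, described below, are described at length because of their small p-values and so were chosen after their values had been seen.

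Ccl7, another Ccr2 ligand, had the largest positive estimate in the irradiated groups, at higher by 1.24 ± 0.45 (SE, adjusted p = 0.206 in limma). For Ccl7, the 0 Gy saline arrays gave -4.27 and -6.05, 8 Gy saline -4.08 and -3.65, FGF1 -4.08 and -4.09 and FGF1/CPP-C -3.56 and -4.03. The difference came from a low array, 0 Gy saline replicate 2, and without it the estimate was 0.35 (adjusted p = 0.586 in limma). It was 2.06 without the 3 arrays with antrum transcripts. Ccl8 was highest with FGF1. At 0 Gy Ccl8 was at -3.36 and -3.87, and at 8 Gy it was at -3.67 and -3.37 with saline, -2.27 and -3.03 with FGF1 and -3.08 and -3.11 with FGF1/CPP-C. Its FGF1 difference from 8 Gy saline was higher by 0.86 ± 0.29 (SE, adjusted p = 1 in limma), and the arrays of these groups did not overlap, as for 7.46% of all genes in that direction. Without FGF1 replicate 1, an array with antrum transcripts, the estimate was 0.48. Ccl12 varied by 0.80 over the 8 arrays, and its irradiated arrays overlapped those of 0 Gy saline. It was higher by 0.14 ± 0.24 (SE, adjusted p = 0.785 in limma) in the irradiated groups. Its estimate was 0.54 without the 3 arrays with antrum transcripts and -0.27 without 0 Gy saline replicate 2. The receptor Ccr2 was itself low, between -5.55 and -4.74, and none of its differences passed.

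Among the neutrophil attractants that bind Cxcr2, only Cxcl5 and Cxcl1 of 5 genes were measured, and Cxcl5 had the smallest unadjusted p of the members in FGF1/CPP-C against 8 Gy saline. In replicate order, Cxcl5 was at -5.39 and -5.63 in 0 Gy saline, -4.59 and -5.40 in 8 Gy saline, -4.86 and -4.29 in FGF1 and -3.76 and -3.80 in FGF1/CPP-C. The FGF1/CPP-C arrays were the highest of the 8 and lay close together. The FGF1 arrays overlapped 8 Gy saline, whose replicate 2 was close to 0 Gy saline replicate 1. In processed signal units this is 43.6 and 34.5 at 0 Gy against 140 and 142 with FGF1/CPP-C, so the signals were dim throughout. Cxcl5 was higher by 1.22 ± 0.31 (SE, adjusted p = 0.349 in limma) for FGF1/CPP-C against 8 Gy saline, a 2.33-fold difference between group means whose arrays did not overlap, as for 0.638% of all genes at 2-fold or more. With normexp background correction this estimate was 0.70. It was higher by 0.79 ± 0.31 (SE, adjusted p = 0.557 in limma) against FGF1, with a 95% interval of 0.05 to 1.54, and 0.51 without the 3 arrays with antrum transcripts. FGF1 against 8 Gy saline was higher by 0.43 ± 0.31 (SE, adjusted p = 1 in limma), and 0.02 without 8 Gy saline replicate 2. None passed.

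Across the 3 irradiated groups, Cxcl5 was higher by 1.06 ± 0.25 (SE, adjusted p = 0.0932 in limma). This estimate moved with the settings: it was 1.20 (adjusted p = 0.0456, limma) without 8 Gy saline replicate 2, an array with antrum transcripts, 1.42 (adjusted p = 0.283) without all 3 such arrays and 0.42 (adjusted p = 0.155) with normexp background correction. Cxcl1, the other attractant measured, was near background. Cxcl1 read -5.78 and -5.76 on the 0 Gy saline arrays, -5.65 and -5.67 on the 8 Gy saline arrays, -5.50 and -5.63 with FGF1 and -5.72 and -5.37 with FGF1/CPP-C. It was well above background on 6 of 8 arrays, and its difference in the irradiated groups was 0.18 ± 0.11 (SE, adjusted p = 0.436 in limma), which turned to -0.04 with normexp background correction. The receptors Cxcr1 and Cxcr2 were not measured. Of the neutrophil markers, S100a9 had levels of -4.66 to -3.70 in both saline groups and -1.86 to -1.32 in both growth factor groups, and passed in the irradiated groups against 0 Gy saline, at 1.89 ± 0.29 (SE, adjusted p = 0.0391 in limma). The other 6 of 7 measured neutrophil markers did not pass. Of the 7, 3 were above 0 Gy saline in the irradiated groups (median -0.01) and 2 above 8 Gy saline with FGF1/CPP-C (median -0.05), and the part of these cells in the Cxcl5 values was not tested.

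**Figure D2:**
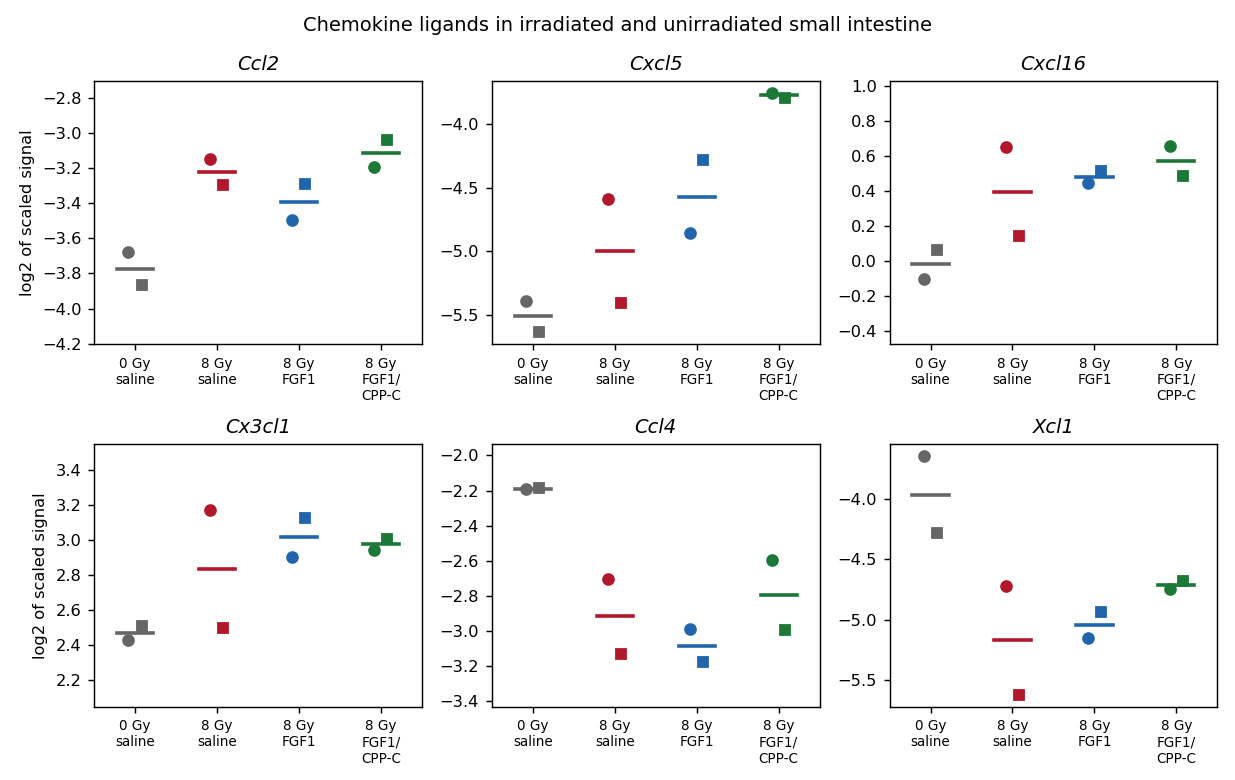
Log2 of the scaled signal (y axis) of 6 ligands in the 4 groups (x axis), circles being replicate 1, squares replicate 2 and bars the group mean, with a y axis of its own in each panel. Ccl2, Cxcl5, Cxcl16 and Cx3cl1 lie higher and Ccl4 and Xcl1 lower in the irradiated groups, and 8 Gy saline replicate 2 reaches or nears the 0 Gy arrays for Cxcl5, Cxcl16 and Cx3cl1.

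The membrane-bound ligands Cx3cl1 (fractalkine) and Cxcl16, which are made with a stalk that anchors them to the cell surface, were both on the high side after irradiation. The levels of Cxcl16 were -0.10 and 0.06 in 0 Gy saline, 0.65 and 0.14 in 8 Gy saline, 0.45 and 0.52 in FGF1 and 0.65 and 0.49 in FGF1/CPP-C. For Cx3cl1, the 0 Gy saline arrays gave 2.43 and 2.51, 8 Gy saline 3.17 and 2.50, FGF1 2.91 and 3.12 and FGF1/CPP-C 2.94 and 3.01. All 6 irradiated arrays were above 0 Gy saline for Cxcl16, while 8 Gy saline replicate 2 reached the 0 Gy range for Cx3cl1. The irradiated groups differed from 0 Gy saline by 0.50 ± 0.15 (SE, adjusted p = 0.145 in limma) for Cxcl16 and 0.47 ± 0.18 (SE, adjusted p = 0.224 in limma) for Cx3cl1. Neither passed over 8 arrays. Without 8 Gy saline replicate 2 both did, Cxcl16 at 0.59 and Cx3cl1 at 0.59, each with an adjusted p of 0.0492 in limma. Within 8 Gy, FGF1 and FGF1/CPP-C were close to saline, with 95% intervals for Cxcl16 of -0.36 to 0.53 and -0.27 to 0.62. The receptor of Cxcl16, Cxcr6, had the opposite sign: it was lower by 0.48 ± 0.11 (SE, adjusted p = 0.0894 in limma) in the irradiated groups and did not pass. Cx3cr1, the receptor of Cx3cl1, lay between 0.44 and 0.79 on all 8 arrays.

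Ccl4 and Xcl1, which activated T and natural killer cells make, were lower on every irradiated array, without passing. Ccl3 and Ccl5, which such cells also make, were not, as described below. Ccl4, an inflammatory CC chemokine, had nearly equal values at 0 Gy. At 0 Gy Ccl4 was at -2.19 and -2.19, and at 8 Gy it was at -2.70 and -3.13 with saline, -2.99 and -3.18 with FGF1 and -2.60 and -3.00 with FGF1/CPP-C. The irradiated groups differed from 0 Gy saline by -0.74 ± 0.16 (SE, adjusted p = 0.0782 in limma), and 8 Gy saline alone by -0.73 ± 0.20 (SE, adjusted p = 0.246 in limma). Neither passed, and the adjusted p of the first ranged from 0.0571 to 0.393 over the other settings. Xcl1 is the C family chemokine of these cells and attracts cross-presenting dendritic cells. In replicate order, Xcl1 was at -3.64 and -4.29 in 0 Gy saline, -4.72 and -5.62 in 8 Gy saline, -5.15 and -4.93 in FGF1 and -4.74 and -4.68 in FGF1/CPP-C. All 6 irradiated arrays were below both 0 Gy arrays. Xcl1 was at a difference of -1.01 ± 0.27 (SE, adjusted p = 0.123 in limma) in the irradiated groups, a 2.01-fold difference, and at a difference of -1.21 ± 0.34 (SE, adjusted p = 0.264 in limma) with 8 Gy and saline, 2.3-fold. Arrays that did not overlap at 2-fold or more on the low side were seen for 0.435% and 0.482% of all genes in these comparisons. Without the 3 arrays with antrum transcripts the first difference was -0.50 (adjusted p = 0.283, limma) and the second -0.43. Without 8 Gy saline replicate 2 they were -0.86 and -0.75.

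Most of the T cell list was also below 0 Gy saline with 8 Gy and saline. Of its 11 measured genes, 10 were below 0 Gy saline in 8 Gy saline (median -0.62) and 11 were above 8 Gy saline with FGF1/CPP-C (median 0.69), with no gene passing. Its summed scaled signal was 21.3 and 24.9 in 0 Gy saline, 22.6 and 16.9 in 8 Gy saline, 19.3 and 23.5 with FGF1 and 30 and 28.6 with FGF1/CPP-C. Cd4, the brightest gene of the list, weighs most in this sum. Its level was 3.26 and 3.49 in 0 Gy saline and 4.09 and 4.03 with FGF1/CPP-C. The median level of the list was 0 and 0.35 in 0 Gy saline and -0.02 and -0.76 in 8 Gy saline. With FGF1 that median was -0.33 and -0.38, and with FGF1/CPP-C 0.13 and 0.34. In whole tissue, fewer cells of a type and less RNA per cell cannot be told apart, and the part of T cells in the Ccl4, Ccl5 and Xcl1 values was not tested. Ccl5, which cytotoxic T cells store, was lowest on 8 Gy saline replicate 2. Ccl5 read 3.97 and 4.09 on the 0 Gy saline arrays, 3.80 and 3.22 on the 8 Gy saline arrays, 3.87 and 3.45 with FGF1 and 4.06 and 4.04 with FGF1/CPP-C. The FGF1/CPP-C arrays were both above 8 Gy saline, at higher by 0.54 ± 0.22 (SE, adjusted p = 0.447 in limma), which did not pass, and the estimate was 0.25 without that low array or without all 3 arrays with antrum transcripts.

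The remaining inflammatory CC ligands are Ccl3, Ccl6 and Ccl9. Ccl3 lies 16.6 kb from Ccl4 between the probes on chromosome 11, and its estimate in 8 Gy saline had the opposite sign. The levels of Ccl3 were -4.38 and -3.95 in 0 Gy saline, -3.77 and -3.08 in 8 Gy saline, -4.02 and -4.22 in FGF1 and -3.98 and -3.73 in FGF1/CPP-C. It was higher by 0.74 ± 0.27 (SE, adjusted p = 0.361 in limma) in 8 Gy saline against 0 Gy saline and at a difference of -0.69 ± 0.27 (SE, adjusted p = 1 in limma) in FGF1 against 8 Gy saline. Its highest array was 8 Gy saline replicate 2, and without it the differences were 0.39 and -0.35. Without the 3 arrays with antrum transcripts they were 0.18 and -0.45. Ccl6, a mouse CC chemokine of myeloid cells, had no value on 8 Gy saline replicate 1, where the spot carried an outlier mark, so that 8 Gy saline rests on 1 array. For Ccl6, the 0 Gy saline arrays gave 3.00 and 3.29, 8 Gy saline 2.88 on replicate 2, FGF1 3.16 and 3.26 and FGF1/CPP-C 3.41 and 3.04. At 0 Gy Ccl9 was at 0.45 and 0.51, and at 8 Gy it was at 0.16 and 0.46 with saline, 0.56 and 0.18 with FGF1 and 0.45 and 0.29 with FGF1/CPP-C. Ccl9, its close relative, varied by 0.40 over all 8 arrays, and the largest difference of either gene in the 5 comparisons was 0.35 ± 0.22 (SE, adjusted p = 0.553 in limma) for Ccl6, in FGF1/CPP-C against 8 Gy saline, and 0.16 without FGF1/CPP-C replicate 1.

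The interferon-induced ligands of Cxcr3, which attract effector T cells, are Cxcl9, Cxcl10 and Cxcl11. In the irradiated groups against 0 Gy saline, Cxcl9 differed by -0.25 and Cxcl10 by -0.40. The Cxcl11 probe, whose signal cannot be assigned to that gene alone, was at -0.36, the median of the 3. Cxcl9 was above both 0 Gy arrays on FGF1/CPP-C replicate 1, and no difference passed. In replicate order, Cxcl10 was at -2.56 and -2.26 in 0 Gy saline, -2.59 and -3.05 in 8 Gy saline, -2.97 and -3.06 in FGF1 and -2.64 and -2.55 in FGF1/CPP-C. Cxcl9 read -2.42 and -2.25 on the 0 Gy saline arrays, -2.32 and -3.37 on the 8 Gy saline arrays, -2.41 and -3.17 with FGF1 and -1.84 and -2.40 with FGF1/CPP-C. Cxcl10 was at a difference of -0.40 ± 0.15 (SE, adjusted p = 0.217 in limma) in the irradiated groups against 0 Gy saline and higher by 0.42 ± 0.18 (SE, adjusted p = 0.596 in limma) in FGF1/CPP-C against FGF1, and the first was -0.25 without 0 Gy saline replicate 2. Cxcl9 was lower on 8 Gy saline replicate 2 and FGF1 replicate 2 than elsewhere, and its differences did not pass in any comparison. The probe at Cxcl11 had the narrowest interval of the 3. The levels of this probe were 8.12 and 8.21 in 0 Gy saline, 7.98 and 7.85 in 8 Gy saline, 7.90 and 7.83 in FGF1 and 7.72 and 7.56 in FGF1/CPP-C. All irradiated arrays were below 0 Gy saline, by -0.36 ± 0.09 (SE, adjusted p = 0.0988 in limma) on average, which did not pass, and the estimate was -0.13 after quantile normalization. Its sequence is shared with other transcripts, as given above. Cxcr3, the receptor of all 3, was lower by 0.41 ± 0.10 (SE, adjusted p = 0.103 in limma) in the irradiated groups. Of the 17 genes of the interferon response list, 13 were above 0 Gy saline in the irradiated groups (median 0.34), and 17 were above 8 Gy saline with FGF1 (median 0.36) and with FGF1/CPP-C (median 0.61). Of the 3 ligands, 0, 1 and 2 were above in these comparisons, the Cxcl11 probe being below in each. No gene of the list or ligand passed.

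The eosinophil attractants Ccl11 and Ccl24 (eotaxins 1 and 2), ligands of Ccr3, differed in sign with FGF1/CPP-C. For Ccl11, the 0 Gy saline arrays gave -1.89 and -1.77, 8 Gy saline -2.05 and -1.21, FGF1 -1.79 and -2.16 and FGF1/CPP-C -2.54 and -2.50. At 0 Gy Ccl24 was at -0.62 and -0.16, and at 8 Gy it was at 0.07 and -0.81 with saline, -0.45 and 0.09 with FGF1 and 0.28 and 0.24 with FGF1/CPP-C. Both FGF1/CPP-C arrays were the lowest of the 8 for Ccl11 and the highest of the 8 for Ccl24. The chimera differed from 8 Gy saline by -0.89 ± 0.28 (SE, adjusted p = 0.392 in limma) for Ccl11 and 0.63 ± 0.34 (SE, adjusted p = 0.496 in limma) for Ccl24, and neither passed. Without 8 Gy saline replicate 2, the high array for Ccl11 and the low one for Ccl24, or without all 3 arrays with antrum transcripts, the differences were -0.47 and 0.19. Ccl17, a ligand of Ccr4 that attracts memory and type 2 T cells, was lower on every irradiated array. In replicate order, Ccl17 was at -3.02 and -3.07 in 0 Gy saline, -3.46 and -3.55 in 8 Gy saline, -3.60 and -4.29 in FGF1 and -3.50 and -3.20 in FGF1/CPP-C. It was at a difference of -0.55 ± 0.19 (SE, adjusted p = 0.19 in limma) in the irradiated groups and higher by 0.60 ± 0.23 (SE, adjusted p = 0.558 in limma) in FGF1/CPP-C against FGF1. The second difference was 0.94 without FGF1 replicate 1, an array with antrum transcripts, and 0.25 without FGF1 replicate 2. Its receptor Ccr4 was not measured.

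**Figure D3:**
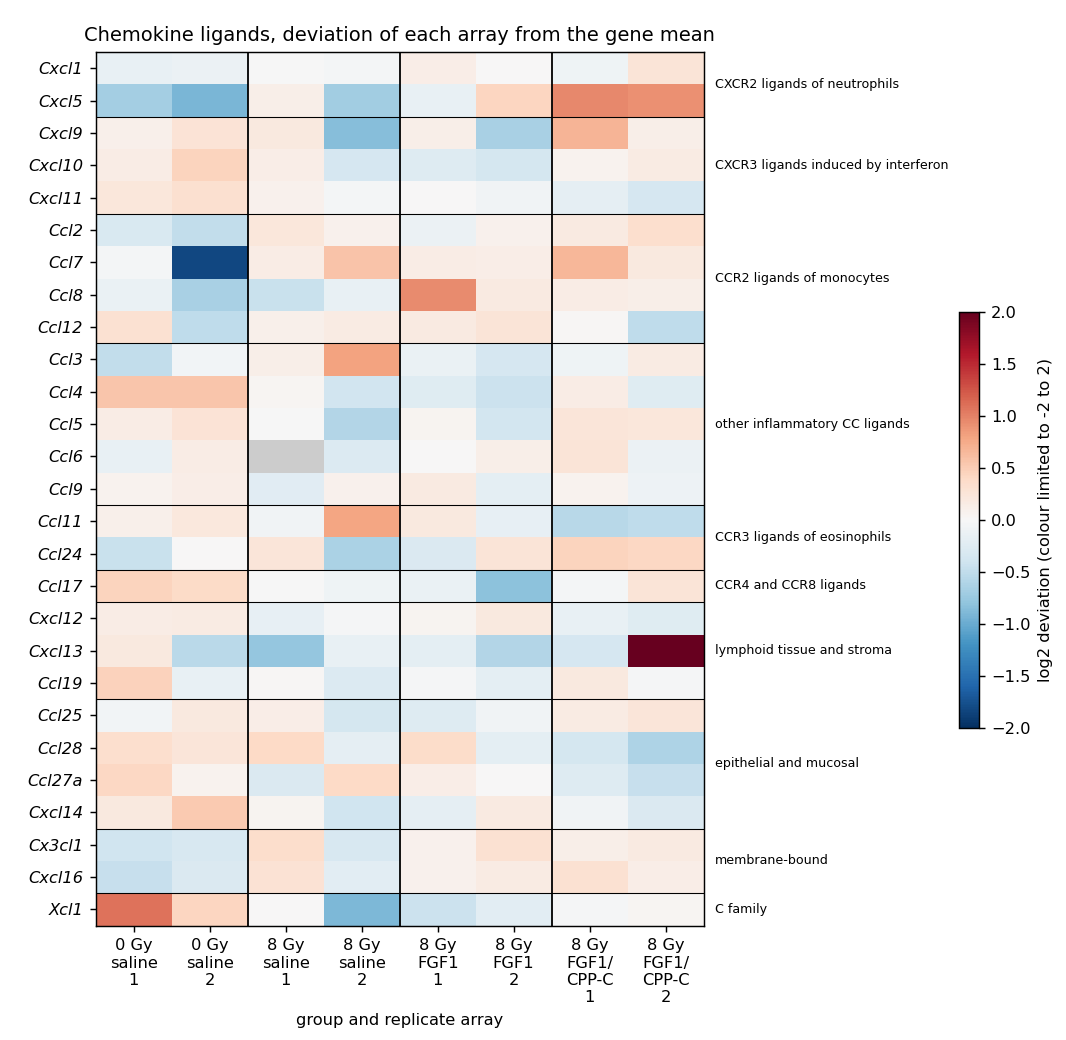
Deviation of each array (columns, 2 per group) from the mean of the gene over the 8 arrays (log2, colour limited to -2 to 2) for the 27 measured ligands (rows, grouped by role), with the missing Ccl6 value in grey. The strongest cells are Cxcl13 on FGF1/CPP-C replicate 2 and Ccl7 on 0 Gy saline replicate 2, each unlike the other array of its group.

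Of the ligands of lymphoid tissue and stroma, Cxcl13, the B cell attractant of follicles, had the widest range of all members, at 3.15 over the 8 arrays. Cxcl13 read -2.50 and -3.24 on the 0 Gy saline arrays, -3.46 and -2.84 on the 8 Gy saline arrays, -2.89 and -3.29 with FGF1 and -3.02 and -0.31 with FGF1/CPP-C. Only 1 array, FGF1/CPP-C replicate 2, stood far above the other 7, including the other array of its group. The estimate for FGF1/CPP-C against 8 Gy saline was higher by 1.48 ± 0.84 (SE, adjusted p = 0.51 in limma), and 0.13 without that array. The same array had the highest value of Cxcr5, the receptor of Cxcl13, at -2.27 against -6.72 to -4.97 elsewhere, of Ccr7 at -1.29 against -4.54 to -2.14, and of Ccr6 at 0.15 against -2.62 to -1.70. The 7 measured B cell and follicle genes summed to 5.58 there and to 1.45 to 2.12 on the others. Among them Cd22 was lowest there, at -2.73 against -2.71 to -2.02 elsewhere. In the irradiated groups against 0 Gy saline, 1 of the 7 genes, Cd22, passed, with a lower level (adjusted p = 0.0484 in limma). Cd22 was at -2.16 and -2.02 in 0 Gy saline and at -2.73 to -2.43 on the irradiated arrays. On FGF1/CPP-C replicate 2, Ltb, a cytokine that maintains follicles, was at 2.05 against 0.34 to 1.21. Madcam1, an adhesion molecule of mucosal vessels, was at 1.00 against -1.87 to -0.58. Madcam1 belongs to a list of follicular and reticular stroma. Of that list, Fcer2a was also highest on this array, but Clu, Enpp2, Pdpn and Tnfsf13b were not. Clu was at 3.83 there and at up to 6.64 elsewhere. The part of follicle tissue in this array was not tested. Cxcl13 is described at length because of this array, after its values had been seen.

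**Figure D4:**
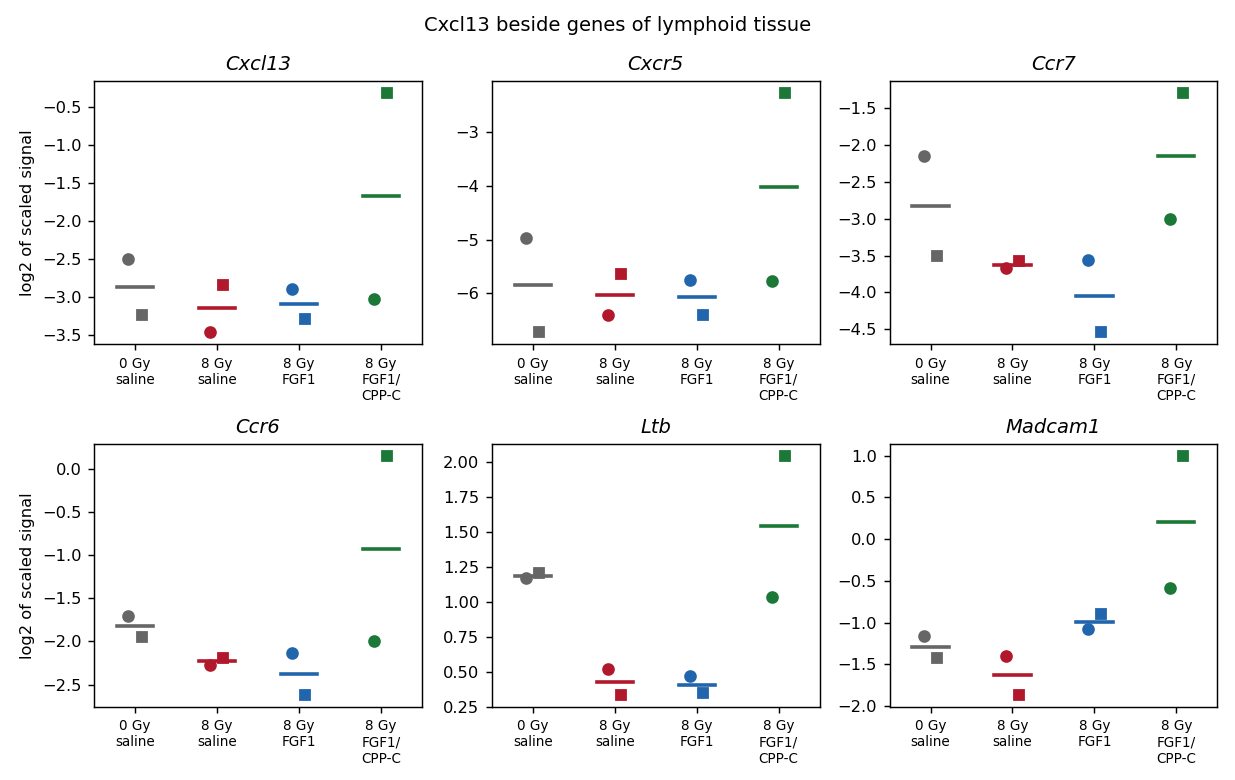
Log2 of the scaled signal (y axis) of Cxcl13 and of 5 genes of lymphoid tissue in the 4 groups (x axis), circles being replicate 1, squares replicate 2 and bars the group mean, with a y axis of its own in each panel. In all 6 panels FGF1/CPP-C replicate 2 is the highest array, and the FGF1/CPP-C replicate 1 array lies closer to the other groups than to replicate 2.

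Ccl19, which guides T cells and dendritic cells that carry Ccr7, has copies on chromosome 4, and its 3 kept probes did not give the same pattern. The levels of Ccl19 were -3.33 and -3.94 in 0 Gy saline, -3.78 and -4.08 in 8 Gy saline, -3.83 and -3.99 in FGF1 and -3.61 and -3.83 in FGF1/CPP-C. This brightest probe varied by 0.74 over the 8 arrays. Another, at mm9 chr4:41941813-41941872, was at -2.62 on FGF1/CPP-C replicate 2 and -4.07 on 0 Gy saline replicate 1, and between -6.68 and -5.84 on the other 6. This probe was well above background on 3 arrays only, 0 Gy saline replicate 1 and both FGF1/CPP-C arrays, and was kept through the FGF1/CPP-C group. Its values on the remaining arrays are only bounds. FGF1/CPP-C replicate 2 and 0 Gy saline replicate 1 are the arrays with the highest Cxcl13 as well, and the authors' signals cannot say which copy of the gene was read. The brightest probe of Cxcl12, the stromal ligand of Cxcr4, varied by 0.44 over the 8 arrays. For Cxcl12, the 0 Gy saline arrays gave 0.31 and 0.32, 8 Gy saline -0.01 and 0.14, FGF1 0.21 and 0.36 and FGF1/CPP-C 0.01 and -0.08. FGF1/CPP-C was below FGF1 by -0.32 ± 0.11 (SE, adjusted p = 0.494 in limma), the smallest unadjusted p of any member in that comparison, which did not pass. The second Cxcl12 probe was also lower with FGF1/CPP-C, at -2.44 and -2.05, than with FGF1, at -1.92 and -1.98. On that probe 0 Gy saline was at -1.44 and -1.56, and every irradiated array was lower, at -2.44 to -1.64. The brightest probe differed by -0.21 ± 0.09 (SE, adjusted p = 0.251 in limma) in the irradiated groups against 0 Gy saline, which did not pass. With the kept probes averaged that estimate was -0.37.

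The epithelial and mucosal ligands had small differences, and all 4 that were measured were below 0 Gy saline in the irradiated groups, with a median of -0.35, though Ccl25 turned to 0.03 without 0 Gy saline replicate 2. Ccl25 varied by 0.59 over all arrays. At 0 Gy Ccl25 was at 6.57 and 6.82, and at 8 Gy it was at 6.76 and 6.27 with saline, 6.36 and 6.55 with FGF1 and 6.79 and 6.86 with FGF1/CPP-C. Its groups overlapped between 8 Gy and 0 Gy saline, and the 95% interval of that difference was -0.64 to 0.28. The other 2 kept Ccl25 probes, which lie elsewhere in the gene, read between -5.73 and -3.88. Ccr9, the receptor of Ccl25, was lower by 0.67 ± 0.24 (SE, adjusted p = 0.355 in limma) in 8 Gy saline. In replicate order, Ccl28 was at -0.61 and -0.71 in 0 Gy saline, -0.54 and -1.12 in 8 Gy saline, -0.57 and -1.13 in FGF1 and -1.29 and -1.56 in FGF1/CPP-C. Ccl28 was lowest on the FGF1/CPP-C arrays, which lay below both 8 Gy saline arrays, and was at a difference of -0.60 ± 0.26 (SE, adjusted p = 0.453 in limma) in that comparison. Without 8 Gy saline replicate 1 the estimate was -0.31, and without the 3 arrays with antrum transcripts -0.89. Its receptor Ccr10 lay between -1.09 and -0.57 on all arrays.

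Cxcl14, a chemokine of epithelium and stroma, was below both 0 Gy arrays on all 6 irradiated arrays. Cxcl14 read 2.54 and 2.87 on the 0 Gy saline arrays, 2.40 and 1.94 on the 8 Gy saline arrays, 2.16 and 2.52 with FGF1 and 2.27 and 2.06 with FGF1/CPP-C. It was at a difference of -0.48 ± 0.18 (SE, adjusted p = 0.214 in limma) in the irradiated groups and at a difference of -0.54 ± 0.22 (SE, adjusted p = 0.428 in limma) with 8 Gy and saline, and neither passed. Without 0 Gy saline replicate 2 the first was -0.32, and without 8 Gy saline replicate 2 the second was -0.31. Ccl27a, a ligand of Ccr10 best known from skin, ranged from -4.20 to -3.32 and was at a difference of -0.32 ± 0.20 (SE, adjusted p = 0.434 in limma) in the irradiated groups, and -0.15 without 0 Gy saline replicate 1. Other mucosal ligands were out of reach: Ccl20, the ligand of Ccr6, was not well above background on any array, and Cxcl17 was so on 3 arrays, which belong to different groups.

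Of 18 chemokine receptor genes, 13 were measured and 0 passed in any of the 5 comparisons. In 8 Gy saline against 0 Gy saline 2 of the 13 were higher, with a median of -0.27, and with FGF1/CPP-C against 8 Gy saline 11 of 13 were higher, with a median of 0.33. Of the cytokines that act upstream of chemokines, 7 of 13 were measured and 0 passed, and Il1b was 0.57 ± 0.16 (SE, adjusted p = 0.376 in limma) higher with FGF1/CPP-C than with 8 Gy saline. The 12 measured NF-kB feedback and target genes had medians between 0.06 and 0.17 in the 5 comparisons, and 0 passed. The atypical receptors, which take up chemokines without signalling to migration, had 5 of 9 entries measured and 0 passing.

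The 8 ligand genes without a measurement were Ccl1, Ccl20, Ccl22, Ccl26, Cxcl2, Cxcl3, Cxcl15 and Cxcl17. For 6 of them no array was well above background, and their highest processed signal was between 1.16 and 23.6 units. A level of this kind is only a bound, and differences between groups were not detectable for these genes.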

How the data were processed

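Total RNA of 8 tissue samples was hybridised to single-colour Agilent arrays. Per the file headers, the deposited files hold the processed signal, a linear intensity with background subtracted and no scaling between arrays, read with Agilent Feature Extraction 9.5.3.1, per the submitters' processing notes. The deposited series matrix holds the same intensity values. Probe coordinates are those of mm9, per the file headers.

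On each array, 1377 control spots and 152 to 333 spots marked as outliers were dropped, and repeated spots of a probe were averaged. Each signal was divided by the 75th percentile of its array, floored at a log2 of -6.721 and taken as log2, this scale being computed here from the deposited intensity. A probe had to exceed background on both arrays of 1 group or more, and the brightest such probe stood for its gene. The test was that of limma 3.58.1 in R 4.3.3, with files read by data.table, version 1.17.8. The model held a mean for each of the 4 groups, with 4 residual degrees of freedom over the 8 arrays. P-values were adjusted by Benjamini-Hochberg across every gene in the comparison, and those under 0.05 passed. The fit was tested on simulated data. With 2 arrays per group, an exact permutation test cannot go below p = 0.333, nor below 0.0357 for 6 arrays against 2. Shared probe sequence was counted as identical runs of 16 bases. Sequence counts and plots used Python 3.11.15 and matplotlib 3.10.9.

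The members, gene lists and tests were chosen with earlier results of these data known. The rule for named genes took every measured member. It gave full values to members that passed, to the 12 of highest mean signal and to those 2-fold or more apart without overlap. Full values of Ccl2, Ccl3, Ccl4, Ccl8, Ccl17, Ccl19, Cxcl1, Cxcl9, Cxcl10 and Cxcl13 were added after their values had been seen. The replicate number is the slide. Deviations of same-numbered arrays from their group means correlated between -0.521 and 0.538, so the numbers were not taken to pair the arrays. Alternatives were quantile normalization, the series matrix in place of the array files, normexp correction (offset 50), 2 other filters on dim probes, averaging the kept probes, fitting only the groups compared, a replicate block, moderation with trend and robust, and leaving out each array or the 3 arrays with antrum transcripts.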

Additional observations from a re-analysis of the deposited data

Results flagged for a closer look

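Among the ligands kept out of the comparisons, 2 had a signal above both 0 Gy saline arrays on an irradiated array where they were well above background. Ccl26, an eosinophil attractant, read 296 units on 8 Gy saline replicate 1, the only array where it was well above background, against at most 8.33 units on the 0 Gy saline arrays. Cxcl17, a mucosal chemokine, read 293 units on 8 Gy saline replicate 2 against at most 63.1 units on the 0 Gy saline arrays. It was well above background on 3 arrays, which are those with high antrum markers. Neither difference was tested.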

How the results depend on the processing

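The count of ligands that passed stayed at 0 in all 5 comparisons under the 17 or 18 alternatives of each, with 1 exception. Without 8 Gy saline replicate 2, 3 ligands passed in the irradiated groups against 0 Gy saline (Cx3cl1, Cxcl5 and Cxcl16), so that leaving out 1 array gave counts of 0 to 3 there. The replicate block (the slide) gave a count of 0 in every comparison, with Ccl2 at 0.53 and an adjusted p of 0.101 in limma for the irradiated groups. Over all 135 log2 differences (27 members in 5 comparisons), 94 of 2385 refits had the opposite sign, and these fell on 47 of the 135 differences. In the comparison of smallest p of 18 members, chosen from the values, 0 of 312 did. Sizes did change: normexp correction lowered the dim Cxcl5 from 1.06 to 0.42 and Ccl7 from 1.24 to 0.43. Dim signals and 2 arrays per group limit what could be detected.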

Other observations

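The ligand genes lie in clusters, and the signs of neighbours in the irradiated groups against 0 Gy saline were counted as a description. In the cluster of chromosome 11 from 81850650 to 81990227 (mm9), 4 of the 5 measured genes (Ccl2, Ccl7, Ccl11, Ccl12 and Ccl8) had positive differences, Ccl12 turning negative without 0 Gy saline replicate 2. In the cluster from 83339296 to 83478111, 1 of 5 did (Ccl3, against Ccl4, Ccl5, Ccl6 and Ccl9). Ccl3 fell from 0.36 to 0.002 without the 3 arrays with antrum transcripts. Ccl6 turned from -0.04 to 0.10 without 0 Gy saline replicate 2. On chromosome 5, both measured genes from 91190490 to 91334593 (Cxcl5 and Cxcl1) were positive, Cxcl1 turning negative with normexp correction. The 3 from 92752191 to 92788699 (Cxcl9, Cxcl10 and Cxcl11) were negative, Cxcl11 being read by the probe whose sequence is shared. No difference behind these counts passed.

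The patterns most like those of 3 members were looked up over the 8 arrays among 21587 genes, again as a description, since the arrays share slides and tissue content. For Ccl2 these were Gm16531, 2310057B04Rik and Tmigd1, with Pearson r of 0.983, 0.974 and 0.968. For Cxcl5 they were Tusc1, Dennd3 and Brd9, with r of 0.989, 0.988 and 0.984. For Cxcl13 they were Gm8893, Serpina1c and Cxcr5, with r of 0.989, 0.989 and 0.987, and these rest on FGF1/CPP-C replicate 2.

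Pf4, a CXC chemokine of platelets that the naming rule leaves out, lay between -0.28 and 0.11 on the 8 arrays and did not pass in any comparison. Mast cell proteases, markers of cells that also release chemokines, were lower after irradiation for Mcpt4, by 1.59 ± 0.19 on the log2 scale (SE, adjusted p = 0.0202 in limma) in the irradiated groups, with all 6 irradiated arrays below both 0 Gy arrays. The other 5 of 6 measured mast cell markers did not pass.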
